A study of Mus musculus with 30 samples.

Results

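Solute carriers (SLC proteins) are membrane transporters that move amino acids, sugars, metals, carboxylates, nucleosides, ions and cofactors across the plasma membrane and the membranes of lysosomes and mitochondria. Each gene symbol gives the family by its first number. Microglia, the resident macrophages of the brain, are known for high levels of Slc2a5, which encodes the fructose transporter GLUT5, and they handle iron through Slc11a2 (DMT1), Slc11a1 (NRAMP1) and the exporter Slc40a1 (ferroportin). Autophagy, which needs the enzyme Atg7, ends in lysosomes, whose membranes carry several SLC proteins that return amino acids, nucleosides and metals to the cytosol.

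The genes described here are the expressed members of this superfamily: protein-coding genes whose symbol starts with Slc and a digit and whose raw count was 10 or more in at least 15 of the 30 libraries, taken over all groups together. They were thus chosen by their raw counts, without regard to group. They number 193 of 371 protein-coding Slc genes (52.02%), in 45 of 49 families, in a table of 46078 genes. Among all protein-coding genes 50.8% passed the same threshold. Of the 193 members, 167 had 10 or more counts in all 30 libraries and 8 passed in only 15 to 19 libraries. Just inside the threshold were Slc41a2 and Slc4a8 (15 libraries each) and Slc9a3r2 (16), and just outside it were Slc25a29, Slc22a4 and Slc12a5 (14 each). Another 23 Slc genes had no count in any library. Slc9a3r1 and Slc9a3r2 (scaffold proteins), Slc4a1ap (an adaptor) and Slc7a6os (named for the strand opposite Slc7a6) carry Slc symbols without being carriers and were kept, as the rule asks. All 193 members entered the tests below.

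The libraries came from sorted microglia of C57BL/6 mice in which experimental autoimmune encephalomyelitis (EAE), a model of multiple sclerosis, was or was not induced. KO mice carried floxed Atg7 alleles (Atg7fl/fl) and a tamoxifen-inducible Cre under the Cx3cr1 promoter (Cx3cr1CreERT), which is active in microglia and in other myeloid cells. WT mice carried wild-type Atg7 (Atg7wt/wt) with Cx3cr1CreERT2, and both genotypes received tamoxifen. Old mice are labelled ATG7_WT with no Cre status, so age and Cre status cannot be told apart. Ages are given only as young or old, and KO and WT mice are young. EAE was induced with recombinant mouse MOG under the skin and intraperitoneal pertussis toxin. There were 4 day 21 KO, 4 day 35 KO, 3 day 35 old, 4 naive KO and 4 naive old libraries, with 3 day 21 WT, 4 day 35 WT and 4 naive WT libraries as controls. Cells were sorted as live CD11b+, CD45 intermediate and Ly6G-, or by eYFP, and lysates of female and male mice were pooled before library preparation. The labels do not say that replicates are separate pools of mice, so p-values measure the spread between these samples, which may be technical. In such bulk samples, fewer cells of a type and less RNA per cell cannot be told apart.

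Depth ranged from 4712803 to 11034565 counts per library, of which the members took 0.753% to 1.16% (median 1.00%). Levels are given as CPM, counts scaled to a common library size after trimmed-mean (TMM) normalization, and a difference as a log2 fold change with its standard error (SE). A gene was called where its adjusted p, Benjamini-Hochberg over 13880 genes, was below 0.05 in edgeR's quasi-likelihood test. The summed CPM of 8 microglia markers was 9123 to 9712 in day 21 KO libraries and 16712 to 18957 in day 21 WT libraries, with all markers above 0. Day 35 old 1 stood apart with a summed level of 32193 CPM over 12 neutrophil markers, against 690.2 and 2466 CPM in the other day 35 old libraries. Naive KO 4 stood apart with 637 CPM over those neutrophil markers and 135 CPM over 8 astrocyte markers (105 CPM of it Slc1a2), against 2797 to 3064 and 9.39 to 15.6 CPM in the other naive KO libraries. One day 35 WT library (WT 3) is WT by its title and by the authors' sample table but KO by its knockout-status label, and it was kept as WT. Atg7 did not check the genotypes, since gene-level counts cannot show a deleted exon: it averaged 32.8 ± 2.73 CPM in day 21 KO and 23.2 ± 3.02 CPM in day 21 WT (SD, n = 4 and 3), and no genotype comparison called it (adjusted p = 0.516 in naive, 0.303 in day 21 and 0.338 in day 35 libraries).

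The most abundant members per length were transporters of amino acids, metals, nucleosides and fructose. Per kilobase of exon, over all libraries, Slc7a8 (the light chain LAT2 of a neutral amino acid exchanger) had 99.0 CPM, Slc11a1 had 80.02 CPM and Slc29a3 (the lysosomal nucleoside transporter ENT3) had 79.3 CPM. Slc2a5 had 72.0 CPM per kilobase and Slc3a2 (CD98, the heavy chain that partners LAT2 and related exchangers) had 71.2 CPM per kilobase. The median member had 5.24 and the lowest, Slc4a8, had 0.156 CPM per kilobase. The 10 most abundant members held 29.8% of all member CPM. The ratio of the highest to the lowest group mean had a median of 1.64 over the members, and it was above 2 for 61 and above 4 for 23 of them. Day 21 KO was the group with the highest mean for 54 members and with the lowest mean for 64, more than any other group on either side. 

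**Figure D1:**
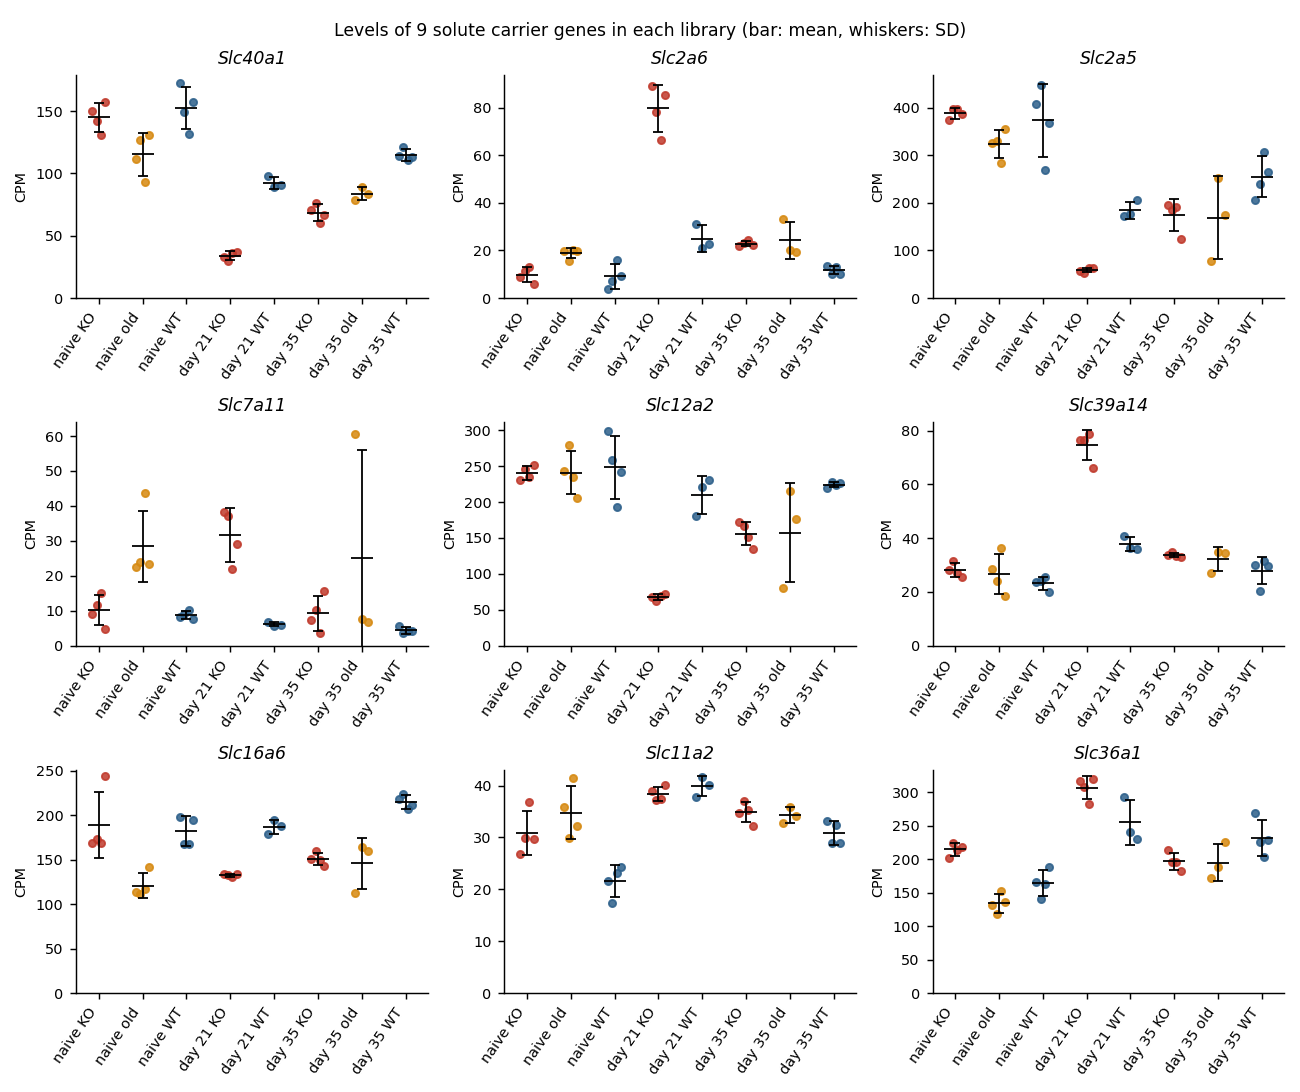
Levels (CPM, y axes from 0) of 9 members in the 30 libraries, with the 8 groups along the x axes, 1 point per library, a bar at the group mean and whiskers of 1 SD. Slc40a1 and Slc2a5 are lowest in the 4 day 21 KO libraries and Slc2a6 is highest there.

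The share of members called was near the share of all genes in some comparisons and above or below it in others. In day 21 KO against day 21 WT, 24 members were higher and 23 lower, or 24.4% of the members, beside 9.18% of all genes tested that were higher and 9.86% that were lower (19% in all) and 21.5% of the protein-coding genes that passed the same count threshold. In day 21 WT against naive WT, 25 were higher and 16 lower, or 21.2% of the members, beside 9.51% and 12% of all genes (21.5% in all). More members were thus higher than lower there, while more of all genes were lower. In day 35 WT against naive WT, 13 were higher and 13 lower, or 13.5% of the members, beside 8.4% and 10.7% of all genes (19.1% in all). In naive old against naive WT, 19 were higher and 4 lower, or 11.9% of the members, beside 5.03% and 3.15% of all genes (8.18% in all). In day 35 KO against day 35 WT, 2 were higher and 4 lower, or 3.11% of the members, beside 1.79% and 0.829% of all genes (2.62% in all). In naive KO against naive WT 2 were higher and 0 lower, or 1.04% of the members, beside 0.238% and 0.0504% (0.288% in all), with 24 members at an unadjusted p below 0.05. The median log2 fold change of the members lay between -0.11 and 0.05 in all 13 comparisons.

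**Figure D2:**
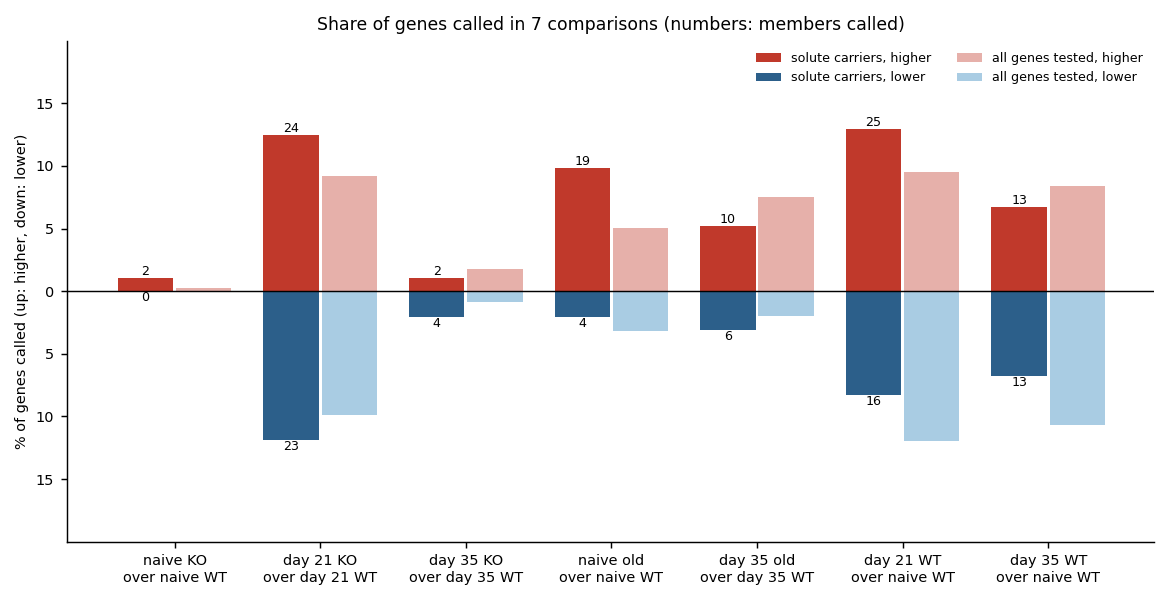
Percentage of the 193 members (dark bars, with their number) and of all 13880 genes tested (pale bars) called higher (upward) and lower (downward) in 7 comparisons, at an adjusted p below 0.05. For day 21 WT over naive WT 25 members were higher and 16 lower, and for naive old over naive WT 19 members were higher and 4 lower.

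At day 21 of EAE, KO microglia had less of the iron exporter and more of both copper transporters than WT microglia. Slc40a1, the only known cellular iron exporter (chromosome 1, 45908068 to 45926523, minus strand, GRCm38), had 32.5, 29.3, 36.5 and 37.2 CPM in day 21 KO libraries, against 98.1, 89.2 and 90.5 CPM in day 21 WT libraries. The groups did not overlap, and the log2 fold change was -1.45 (SE 0.11, adjusted p = 1.93e-09). Slc31a1 (CTR1, copper uptake) had 89.0, 93.5, 80.2 and 74.7 CPM in day 21 KO and 54.4, 53.3 and 58.8 CPM in day 21 WT libraries, a log2 fold change of 0.60 (SE 0.12, adjusted p = 0.00109). Slc31a2 (CTR2, its endosomal relative) averaged 76.9 ± 6.70 CPM in day 21 KO and 48.2 ± 1.73 CPM in day 21 WT libraries, a log2 fold change of 0.68 (SE 0.14, adjusted p = 0.000872). The lysosomal heme transporter Slc48a1 (HRG1) also rose, by 0.64 on the log2 scale (adjusted p = 0.00514), though its day 21 KO 3 value of 23.3 CPM was next to the highest day 21 WT value. Slc11a2 and Slc11a1 passed no test here, at 38.4 ± 1.36 against 39.9 ± 1.95 CPM and 372 ± 40.3 against 318 ± 8.66 CPM. In all, 3 of 9 members for iron, copper and magnesium were higher and 1 lower, beside 9.18% and 9.86% of all genes. These 4 calls held when any 1 library was left out.

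The 12 partner genes of iron handling were chosen with results of these data known. In day 21 KO 3 of them were higher and 0 lower, beside 9.18% and 9.86% of all genes. Fth1, the ferritin heavy chain that stores iron, averaged 1753 ± 189 CPM in day 21 KO and 942 ± 21.8 CPM in day 21 WT libraries, a log2 fold change of 0.90 (SE 0.18, adjusted p = 0.000883). Fth1 has pseudogene copies, so its counts are uncertain by whatever reads they share. Blvrb (biliverdin reductase B) and Steap3 (an endosomal metalloreductase) changed by 0.89 (SE 0.27, adjusted p = 0.0204) and 1.48 (SE 0.49, adjusted p = 0.0315). The partner genes were not refitted without single libraries.

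Of 18 zinc and manganese carriers, 1 was higher and 1 lower, beside 9.18% and 9.86% of all genes, with a median log2 fold change of -0.15 over the 18. Within KO mice, 3 of them were higher and 8 lower at day 21 than in naive libraries, beside 22.5% and 22.7% of all genes. Slc39a14 (ZIP14), which imports zinc, manganese and non-transferrin iron, had 76.3, 76.6, 78.7 and 66.2 CPM in day 21 KO and 40.9, 36.5 and 35.998 CPM in day 21 WT libraries. The groups did not overlap, with a log2 fold change of 0.98 (SE 0.16, adjusted p = 8.01e-05). Its relative Slc39a8 (ZIP8) averaged 20.4 ± 2.10 CPM in day 21 KO and 32.9 ± 2.91 CPM in day 21 WT libraries, -0.69 on the log2 scale (adjusted p = 0.0122). That call was lost without day 21 WT 3 (-0.63, adjusted p = 0.0637).

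Sugar carriers changed in opposite directions, 1 of 14 higher and 3 lower, beside 9.18% and 9.86% of all genes. Slc2a6 (GLUT6, a transporter of lysosomal membranes; chromosome 2, 27021363 to 27027998, minus strand, GRCm38) had 89.0, 78.1, 66.6 and 85.5 CPM in day 21 KO libraries, against 31.3, 21.1 and 22.5 CPM in day 21 WT libraries. Slc2a5 had 57.0, 53.2, 62.7 and 62.1 CPM in day 21 KO libraries, against 172.8, 176 and 204.9 CPM in day 21 WT libraries. Neither gene's groups overlapped. The log2 fold change was 1.68 (SE 0.28, adjusted p = 0.000149) for Slc2a6 and -1.65 (SE 0.23, adjusted p = 2.78e-05) for Slc2a5, both called without any 1 library. Slc37a2, a sugar phosphate exchanger of the endoplasmic reticulum, averaged 109.6 ± 3.77 CPM in day 21 KO and 153 ± 9.39 CPM in day 21 WT libraries, -0.48 on the log2 scale (adjusted p = 0.0117), a call lost without day 21 WT 3 (-0.43, adjusted p = 0.0700). Slc5a10 (SGLT5) was near the detection limit, at 0.157 to 0.451 CPM in day 21 KO and 1.84 to 2.71 CPM in day 21 WT libraries. It was below the count threshold of the membership rule in every day 21 KO library, so it met the rule through other groups. Its level is given as a description, and its call as lower does not measure the size of a difference. Of its exons, 16.6% overlap those of Fam83g on the opposite strand, and the strand setting of the counting is not stated in the sources. The main glucose transporter Slc2a1 (GLUT1) was not called, at 78.8 ± 6.58 CPM in day 21 KO and 63.2 ± 1.87 CPM in day 21 WT libraries (adjusted p = 0.0844).

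The 11 partner genes of glucose and lactate use were also chosen with results of these data known. In day 21 KO 4 of them were higher and 1 lower, beside 9.18% and 9.86% of all genes. Pkm (pyruvate kinase) averaged 307 ± 12.8 CPM in day 21 KO and 129 ± 9.03 CPM in day 21 WT libraries, a log2 fold change of 1.25 (SE 0.29, adjusted p = 0.00387). Pfkp (platelet-type phosphofructokinase) averaged 43.9 ± 6.01 CPM in day 21 KO and 6.88 ± 2.67 CPM in day 21 WT libraries. Ldha and Ldhb, the A and B subunits of lactate dehydrogenase, changed by 0.90 (SE 0.17, adjusted p = 0.000628) and -0.75 (SE 0.20, adjusted p = 0.00935). Of 7 carriers of monocarboxylates and dicarboxylates, some of which move lactate and pyruvate with protons, 4 were lower and 0 higher. Of all genes 9.86% were lower and 9.18% higher. Slc13a3, Slc16a1 and the lactate exporter Slc16a3 were not called. Slc16a7 (MCT2) had 11.1, 11.1, 11.3 and 8.30 CPM in day 21 KO and 18.6, 21.7 and 22.9 CPM in day 21 WT libraries, a log2 fold change of -1.01 (SE 0.17, adjusted p = 0.000124). Slc16a6 (MCT7) averaged 132.5 ± 1.67 CPM in day 21 KO and 187 ± 7.96 CPM in day 21 WT libraries, -0.50 on the log2 scale (adjusted p = 0.00410); 21.5% of its exons overlap Amz2 on the opposite strand. Slc16a9 and Slc16a13 were also lower but lost their calls in 5 and 3 of the 7 leave-one-out fits, with adjusted p up to 0.191 and 0.125.

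The class of amino acids and peptides had 8 of 33 members higher and 0 lower, beside 9.18% and 9.86% of all genes. This class includes Slc7a6os, which is not a carrier, and the 8 include Slc43a3, whose substrate was not checked. The median log2 fold change over the 33 was -0.04. Slc7a11 (xCT, which imports cystine in exchange for glutamate) had 38.3, 37.1, 21.8 and 29.04 CPM in day 21 KO libraries, against 6.70, 5.71 and 5.98 CPM in day 21 WT libraries, so every KO library was above every WT library. Its log2 fold change was 2.36 (SE 0.59, adjusted p = 0.00698), and the call held without any 1 library. Slc43a2 (LAT4, efflux of branched-chain and aromatic amino acids) averaged 346 ± 23.2 CPM in day 21 KO and 239 ± 14.9999 CPM in day 21 WT libraries, a log2 fold change of 0.54 (SE 0.11, adjusted p = 0.00078), also held throughout. Slc7a2 (CAT2, arginine uptake) had 76.0, 67.5, 48.7 and 53.04 CPM in day 21 KO and 8.37, 0.879 and 1.31 CPM in day 21 WT libraries, 4.21 on the log2 scale (adjusted p = 0.0130). Day 21 WT 1 was well above the other WT libraries, and the call was lost without WT 2 (3.77, adjusted p = 0.0698) or WT 3 (3.75, adjusted p = 0.0772). Slc1a5 (ASCT2, glutamine) averaged 15.997 ± 3.88 CPM in day 21 KO and 7.88 ± 0.436 CPM in day 21 WT libraries (adjusted p = 0.0200), a call lost without KO 1, WT 2 or WT 3 (adjusted p = 0.0648, 0.0630 and 0.0869). Slc7a1 (CAT1, arginine and lysine) averaged 44.8 ± 4.62 CPM in day 21 KO and 29.5 ± 6.12 CPM in day 21 WT libraries (adjusted p = 0.0445). That call was lost without any library except WT 1, with an adjusted p of up to 0.204. The heavy chain Slc3a2 and its partner Slc7a5 (LAT1) were not called (adjusted p = 0.746 and 0.640), and Slc7a8 just missed, at 333 ± 12.8 CPM in day 21 KO and 469 ± 17.1 CPM in day 21 WT libraries (adjusted p = 0.0521). ATF4 is the transcription factor of the amino acid response. The list of its 8 tested Slc targets was chosen with results of these data known. On that list 3 genes (Slc1a5, Slc7a1 and Slc7a11) were higher and 0 lower, beside 9.18% and 9.86% of all genes. ATF4 activity was not tested.

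**Figure D3:**
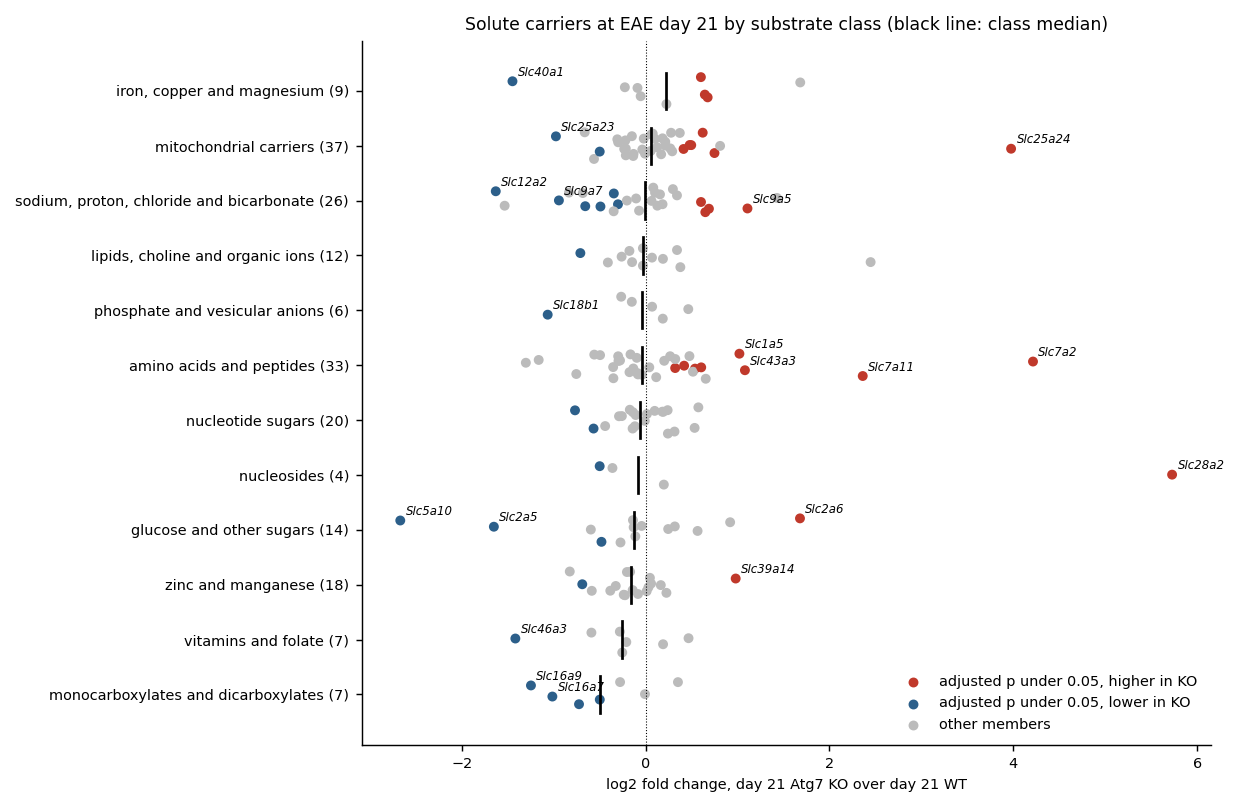
Log2 fold change of day 21 KO over day 21 WT for each of the 193 members, 1 point per gene, in rows by transported substrate with a black line at each class median; called genes (adjusted p below 0.05) are red where higher and blue where lower in KO. The class of amino acids and peptides has 8 called members higher and 0 lower, with a class median of -0.04. Carriers of monocarboxylates and dicarboxylates have 4 called lower and 0 higher, with a class median of -0.50.

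The promoter windows of 4 of these genes are shown because Slc7a11, Slc7a1, Slc2a6 and Slc46a3 moved between day 21 KO and WT and their windows overlap no exon of another gene. They are RefSeq sequences of GRCm38.p6, up to 250 bases before the start of the gene, written 5′ to 3′ on the gene's own strand, which is the minus strand for all 4; capitals mark motif matches.
Slc7a11, chr3:50443615-50443863: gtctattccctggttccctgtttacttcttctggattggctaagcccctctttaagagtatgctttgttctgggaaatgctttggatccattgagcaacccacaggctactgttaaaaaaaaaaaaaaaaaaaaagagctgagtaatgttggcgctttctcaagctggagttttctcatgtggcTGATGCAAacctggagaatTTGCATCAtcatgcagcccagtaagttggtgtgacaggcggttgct
Slc7a1, chr5:148399905-148400154: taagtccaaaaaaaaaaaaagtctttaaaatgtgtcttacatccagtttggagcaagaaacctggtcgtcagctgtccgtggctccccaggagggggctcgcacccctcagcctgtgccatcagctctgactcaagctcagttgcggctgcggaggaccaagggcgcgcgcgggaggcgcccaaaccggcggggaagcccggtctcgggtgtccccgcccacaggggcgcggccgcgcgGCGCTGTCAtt
Slc2a6, chr2:27027999-27028248: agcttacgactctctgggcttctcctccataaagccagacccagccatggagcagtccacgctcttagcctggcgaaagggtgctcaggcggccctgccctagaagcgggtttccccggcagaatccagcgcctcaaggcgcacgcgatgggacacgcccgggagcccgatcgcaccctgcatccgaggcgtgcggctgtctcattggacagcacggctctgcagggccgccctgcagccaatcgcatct
Slc46a3, chr5:147894816-147895065: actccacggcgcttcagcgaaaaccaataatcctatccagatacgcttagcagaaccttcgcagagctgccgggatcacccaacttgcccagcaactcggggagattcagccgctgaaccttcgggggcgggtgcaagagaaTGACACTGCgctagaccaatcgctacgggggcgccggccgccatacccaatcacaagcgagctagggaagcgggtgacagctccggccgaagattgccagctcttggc
In these windows both strands were searched for 5 motifs, none of which overlapped another in the windows shown. The C/EBP-ATF response element TGATGNAA, the kind of site bound by ATF4 with C/EBP proteins, stood in the Slc7a11 window once on each strand, 65 to 58 and 46 to 39 bases before the start. It was present in 3.53% of 27025 promoter windows and in 4 of 147 members with a window (2.72%). The antioxidant response element core TGACNNNGC stood in the Slc7a1 window 11 to 3 bases and in the Slc46a3 window 108 to 100 bases before the start, and it was present in 10.1% of all windows and in 25 members (17%). The NF-kappaB site (0.344% of all windows, 1 member), the CLEAR-type E-box TCACGTGA (0.803%, 3 members) and the PU.1 site GAGGAAGT (2.43%, 4 members) did not occur in the windows shown, and the Slc2a6 window held none of the 5. A match describes letters in a window, not a bound site or a cause.

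Carriers of ions, cofactors and organelle substrates had some of the largest differences at day 21. Slc12a2 (NKCC1, chloride uptake with sodium and potassium) had 67.7, 62.3, 69.7 and 72.2 CPM in day 21 KO libraries, against 180.0, 221 and 230.1 CPM in day 21 WT libraries. Its relative Slc12a7 (KCC4, chloride and potassium exit) had 106, 110.003, 104.1 and 101.3 CPM in day 21 KO and 71.0, 63.1 and 74.1 CPM in day 21 WT libraries. Both pairs of groups were apart, in opposite directions: the log2 fold change was -1.63 (SE 0.19, adjusted p = 1.89e-06) for Slc12a2 and 0.60 (SE 0.13, adjusted p = 0.00176) for Slc12a7. The endosomal sodium and proton exchangers Slc9a9 and Slc9a7 (NHE9, NHE7) changed by -0.66 and -0.94 on the log2 scale (adjusted p = 0.00163 and 0.00131). Of 26 members in the class of sodium, protons, chloride and bicarbonate, 4 were higher and 6 lower, beside 9.18% and 9.86% of all genes. This class includes Slc9a3r1, Slc9a3r2 and Slc4a1ap, which are not carriers, and the scaffold gene Slc9a3r1 was among those higher. Slc46a3, a lysosomal transporter, had 38.9, 44.3, 46.9 and 44.6 CPM in day 21 KO and 106, 129 and 115 CPM in day 21 WT libraries, without overlap and with a log2 fold change of -1.42 (SE 0.23, adjusted p = 0.000129). Slc44a2 (a choline transporter), Slc18b1 (a vesicular polyamine transporter) and the Slc35 family members Slc35b2 and Slc35a5 changed by -0.71, -1.06, -0.77 and -0.57 on the log2 scale. The 9 calls whose log2 fold changes are given in this paragraph held without any 1 library.

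Mitochondrial carriers had 6 of 37 members higher and 2 lower, beside 9.18% and 9.86% of all genes (19% in all). Slc25a22, a glutamate carrier, averaged 46.6 ± 2.80 CPM in day 21 KO and 27.9 ± 7.70 CPM in day 21 WT libraries, a log2 fold change of 0.75 (SE 0.18, adjusted p = 0.00366). The related ATP-magnesium and phosphate carriers Slc25a25 and Slc25a23 moved apart: Slc25a25 averaged 65.9 ± 6.37 CPM in day 21 KO and 42.8 ± 2.68 CPM in day 21 WT libraries, and Slc25a23 11.1 ± 1.82 and 22.01 ± 3.08 CPM. Their log2 fold changes were 0.62 (SE 0.15, adjusted p = 0.00369) and -0.98 (SE 0.20, adjusted p = 0.00119), and these 3 calls held throughout. Of 10 members known to sit in lysosomes, 2 were higher (Slc48a1 and Slc15a3, a peptide and histidine transporter) and 2 lower (Slc46a3 and Slc29a3), beside the same shares of all genes. Slc15a3 changed by 0.42 (adjusted p = 0.0162; 0.0861 without WT 3), with 28.1% of its exons overlapping Tmem132a on the opposite strand, and Slc29a3 by -0.50 (adjusted p = 0.0443), a call lost whichever of the 7 libraries was left out, with an adjusted p of up to 0.139.

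Of the 47 members called at day 21, 26 were called in each of the 7 leave-one-out fits, and leaving out day 21 WT 2 gave 31 calls, leaving out day 21 WT 3 gave 28. Other cell markers moved with these groups. The summed level of 10 monocyte markers was 2096 to 2883 CPM in day 21 KO and 175 to 476 CPM in day 21 WT libraries, with up to 1 marker at 0 in a WT library. That of 8 border macrophage markers was 230.0 to 305.7 CPM in day 21 KO and 14.6 to 64.1 CPM in day 21 WT, and that of 10 T and NK cell markers 14.4 to 22.6 and 1.12 to 4.52 CPM, with 4 to 5 T and NK cell markers at 0 in the WT libraries. Fn1 made up most of the monocyte sum, averaging 2085 CPM in day 21 KO and 283 CPM in day 21 WT, and Ccr2 averaged 66.2 and 11.5 CPM. Of the 8 microglia markers 7 were called lower and 0 higher, with a median log2 fold change of -1.10. Their part in the members' differences was not tested. Clinical scores overlapped (2.75 to 3 in day 21 KO and 2 to 3 in day 21 WT).

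Before EAE, 2 members were called between the genotypes, and 24 had an unadjusted p below 0.05. Slc11a2 had 26.9, 29.9, 36.8 and 29.6 CPM in naive KO libraries, against 21.6, 17.4, 23.2 and 24.2 CPM in naive WT libraries, a log2 fold change of 0.50 (SE 0.11, adjusted p = 0.0419). Slc12a7 had 48.3, 57.8, 80.3 and 61.4 CPM in naive KO libraries, against 41.3, 36.4, 44.9 and 42.9 CPM in naive WT libraries, a log2 fold change of 0.58 (SE 0.12, adjusted p = 0.0291). Neither pair of groups overlapped. Both calls were kept without naive KO 4, the library rich in astrocyte markers, and the count was 0 without naive KO 2, naive KO 3, naive WT 1, naive WT 2 or naive WT 4. Slc40a1, Slc2a6, Slc2a5, Slc7a11 and Slc12a2 had naive KO over naive WT log2 fold changes of -0.07, 0.10, 0.06, 0.21 and -0.04 (SE 0.10, 0.28, 0.21, 0.53 and 0.17), none of them called.

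The genotype difference at day 21 was itself tested against the naive one, as an interaction on all libraries. It differed for 28 members, 9 of them positive and 19 negative, beside 4.72% and 4.96% of all genes (9.68% in all). For Slc40a1 the difference between the genotype effects was -1.37 (SE 0.15, adjusted p = 3.38e-06), for Slc2a5 -1.71 (SE 0.31, adjusted p = 0.00185) and for Slc12a2 -1.59 (SE 0.25, adjusted p = 0.000502). For Slc46a3 it was -1.68 (SE 0.31, adjusted p = 0.00185) and for Slc25a25 1.05 (SE 0.20, adjusted p = 0.00228). These 5 were among 10 interaction calls that held without any 1 library. For Slc2a6 it was 1.58 (SE 0.39, adjusted p = 0.0132), a call lost without naive WT 3 (1.13, adjusted p = 0.0532). The count was 17 without day 21 KO 2, 14 without naive WT 3, 15 without day 21 WT 2, 12 without day 21 WT 3 and 23 without naive KO 4. Within KO mice, 48 members were higher and 53 lower at day 21 than in naive libraries, beside 22.5% and 22.7% of all genes (45.2% in all). Slc7a11 did not pass the interaction (2.15 (SE 0.78, adjusted p = 0.0792)), and Slc39a14 did (0.70 (SE 0.21, adjusted p = 0.0368)) but lost its call in 10 leave-one-out fits, with an adjusted p of up to 0.0959.

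At day 35 the genotypes differed in 6 members, of which Slc40a1 alone kept its call in every leave-one-out fit. Slc40a1 had 70.7, 75.9, 59.8 and 66.7 CPM in day 35 KO libraries, against 113.7, 121, 110.4 and 113 CPM in day 35 WT libraries. The groups did not overlap, with a log2 fold change of -0.75 (SE 0.10, adjusted p = 0.000212) and leave-one-out values from -0.80 to -0.69. Slc2a6 had 21.7, 23.1, 24.5 and 22.3 CPM in day 35 KO and 13.3, 10.0, 12.8 and 10.2 CPM in day 35 WT libraries, again without overlap. Its log2 fold change was 0.98 (SE 0.26, adjusted p = 0.0439), and the call was lost in each of the 8 leave-one-out fits (adjusted p from 0.0517 to 0.152). Slc16a6 averaged 151 ± 6.80 CPM in day 35 KO and 215 ± 7.48 CPM in day 35 WT libraries (-0.51, adjusted p = 0.0155). That call was lost without KO 3 (adjusted p = 0.0528) or WT 2 (0.0653). Slc25a37 (mitoferrin 1, mitochondrial iron import) averaged 66.8 ± 8.71 CPM in day 35 KO and 109 ± 23.9 CPM in day 35 WT libraries (-0.71, adjusted p = 0.0241), lost without KO 1, KO 3, WT 1 or WT 2 (adjusted p from 0.0573 to 0.101). Slc36a4, an amino acid transporter, averaged 43.3 ± 4.55 and 31.8 ± 4.80 CPM (0.45, adjusted p = 0.0311), lost without KO 1, KO 2, KO 3, WT 1 or WT 2 (adjusted p from 0.0689 to 0.125).

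The count of 6 was 3 without day 35 KO 1 or WT 1 and 1 without day 35 KO 3 or WT 2. Without the library with conflicting labels 6 were called (5 of them shared), and 5 with it moved to KO (4 shared). Clinical scores did not overlap at day 35 (2.5 to 3 in KO and 1 to 1.5 in WT), so genotype and disease severity cannot be told apart there. The monocyte marker sum was 958 to 1378 CPM in day 35 KO and 99.1 to 294 CPM in day 35 WT libraries, with up to 1 and up to 5 of the 10 markers at 0 in a library, and its part was not tested. The iron partners Fth1 and Cp (ceruloplasmin, which oxidizes exported iron) were higher, 2 of 12, with Cp at 20.8 ± 1.68 CPM in day 35 KO and 6.27 ± 2.46 CPM in day 35 WT libraries (1.73 (SE 0.39, adjusted p = 0.0222)) and Fth1 at 0.66 (SE 0.16, adjusted p = 0.0318). Of 4 genes for metallothioneins and their regulator, Mt1 and Mt2 were higher, with log2 fold changes of 1.08 (SE 0.21, adjusted p = 0.00713) and 3.01 (SE 0.69, adjusted p = 0.0222). Of all genes tested, 1.79% were higher and 0.829% lower in day 35 KO than in day 35 WT. The interaction at day 35 called Slc40a1 among the members (-0.67 (SE 0.14, adjusted p = 0.0313)), beside 0.238% of all genes with a positive and 0.13% with a negative difference (0.367% in all). That call was lost in 9 leave-one-out fits with an adjusted p of up to 0.103, and without naive KO 4 the interaction called Slc25a25 and Slc4a4 instead (0.95 and 3.75 on the log2 scale).

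In WT mice, several of these carriers differed between libraries with EAE and naive libraries. Border macrophage markers moved with these groups: their summed level was 14.6 to 64.1 CPM in day 21 WT and 9.86 to 84.4 CPM in day 35 WT libraries, against 264 to 389 CPM in naive WT libraries, without overlap. At most 1 of the 8 markers was at 0 in a day 21 WT library, at most 2 in a day 35 WT library and 0 in naive WT libraries. The 7 astrocyte markers other than Slc1a2 summed to 27.2 to 41.7 CPM in day 21 WT and 13.54 to 31.3 CPM in day 35 WT libraries. In naive WT libraries their sum was 4.12 to 13.60 CPM, apart from day 21 WT but overlapping day 35 WT. The part of either marker set in the values below was not tested. Slc40a1 averaged 92.6 ± 4.84 CPM in day 21 WT and 115 ± 4.73 CPM in day 35 WT libraries, against 153 ± 16.7 CPM in naive WT libraries. It fell by -0.72 (adjusted p = 3.54e-05) and by -0.41 (adjusted p = 0.00594) on the log2 scale. The iron importer Slc11a2 averaged 39.9 ± 1.95 CPM in day 21 WT and 30.8 ± 2.28 CPM in day 35 WT libraries, against 21.6 ± 3.02 CPM in naive WT libraries. It rose, with log2 fold changes of 0.88 (SE 0.12, adjusted p = 5.24e-06) and 0.51 (SE 0.11, adjusted p = 0.00287). Its phagosomal relative Slc11a1 had 307.8, 321 and 323.9 CPM in day 21 WT libraries, against 231, 189, 232 and 230.1 CPM in naive WT libraries, without overlap (0.53 (SE 0.12, adjusted p = 0.00330)). At day 35 Slc11a1 was also called (0.40, adjusted p = 0.0178), but not without day 35 WT 1 or naive WT 2 (adjusted p = 0.0537 and 0.0797).

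The lysosomal amino acid and proton transporter Slc36a1 (PAT1) had 293, 240.3 and 231 CPM in day 21 WT and 269, 226, 202.9 and 229 CPM in day 35 WT libraries, against 166.1, 141, 163.5 and 188 CPM in naive WT libraries. Both groups with EAE lay above the naive one, and the log2 fold changes were 0.63 (SE 0.11, adjusted p = 0.00019) and 0.49 (SE 0.10, adjusted p = 0.00203). Slc12a7 and Slc25a36 (a mitochondrial pyrimidine nucleotide carrier) rose at day 21 by 0.74 and 0.65 (adjusted p = 0.000191 and 5.51e-05). Slc2a5 fell to 184 ± 17.8 CPM in day 21 WT, against 373 ± 76.6 CPM in naive WT libraries (-1.01 (SE 0.23, adjusted p = 0.00311)). Slc2a6 rose at day 21 (1.44 (SE 0.29, adjusted p = 0.000787)) and was not called at day 35 (0.34 (SE 0.28, adjusted p = 0.408)). At day 21, 5 of 33 members in the class of amino acids and peptides were higher and 0 lower, beside 9.51% and 12% of all genes. Among them was Slc6a9 (GLYT1, glycine uptake), a low gene at 4.96 to 6.30 CPM in day 21 WT and 0.735 to 2.58 CPM in naive WT libraries (1.73 (SE 0.32, adjusted p = 0.000297)), with 27.8% of its exons overlapping Ccdc24 on the opposite strand.

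Of 41 calls at day 21 against naive WT, 31 held in every leave-one-out fit. Of 26 at day 35, 13 held, and leaving out day 35 WT 1 gave 14, naive WT 2 gave 15 and day 35 WT 2 gave 17 calls. Without the library with conflicting labels it was 32 (24 shared). Between day 35 WT and day 21 WT, edgeR called 0 members, beside 0.0072% of all genes higher and 0.0576% lower (0.0648% in all), with 20 members at an unadjusted p below 0.05 and 2 called by DESeq2. In KO mice 21 members were higher and 25 lower at day 35 than in naive libraries, beside 11.6% and 9.81% of all genes (21.4% in all), a count that was 25 without day 35 KO 4 and 42 without naive KO 4. The comparisons against naive WT share those libraries, as do the comparisons against naive KO.

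**Figure D4:**
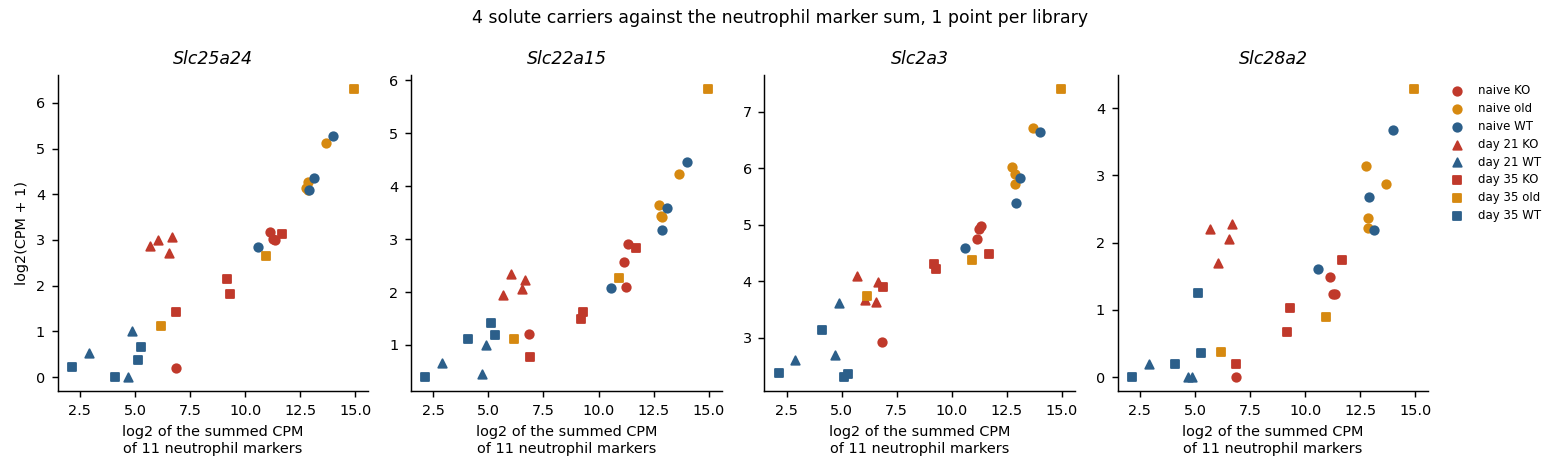
Level, as log2(CPM + 1), of Slc25a24, Slc22a15, Slc2a3 and Slc28a2 against the log2 of the summed CPM of 11 neutrophil markers (without Csf3r), 1 point per library, with colour for KO, old or WT and shape for naive, day 21 or day 35. Day 35 old 1 lies at the top right of each panel, and the 4 day 21 KO libraries have higher marker sums than the 3 day 21 WT libraries and higher levels of each gene.

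A small set of members fell with EAE where neutrophil markers fell too. The neutrophil sum was 699 to 725 CPM in day 21 WT and 599 to 810.2 CPM in day 35 WT libraries, against 2011 to 16779 CPM in naive WT libraries. Slc25a24 (a mitochondrial ATP-magnesium carrier) had 1.00, 0.439 and 0 CPM in day 21 WT and 0.572, 0.304, 0.157 and 0 CPM in day 35 WT libraries, against 6.17, 16.2, 37.99 and 19.5 CPM in naive WT libraries. Slc2a3 (GLUT3, glucose) had 11.2, 5.12 and 5.52 CPM in day 21 WT and 4.15, 3.96, 4.23 and 7.79 CPM in day 35 WT libraries, against 23.1, 40.8, 98.6 and 55.7 CPM in naive WT libraries. Naive WT 3, with the highest neutrophil sum of its group, was also the highest naive WT library for Slc25a24, Slc2a3, Slc28a2 and Slc22a15. Log2 fold changes of day 21 WT over naive WT were -5.58, -2.94, -6.55 and -4.10 in that order, all called, the last not without day 21 WT 3 (-3.75, adjusted p = 0.0511). Slc25a24 and Slc28a2 were below the count threshold of the membership rule in every day 21 WT library, so their fitted fold changes were no bound. The part of neutrophil RNA in the values of these members was not tested.

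In day 21 KO against day 21 WT libraries, Slc28a2 and Slc25a24 of these genes were called higher. Each was below the count threshold of the membership rule in every day 21 WT library, so it met the rule through other groups. Their levels are given as a description, and the calls do not measure the size of a difference. Csf3r, a receptor gene on the neutrophil list, made up most of the sum in these libraries, averaging 475 CPM in day 21 KO and 694 CPM in day 21 WT. The other 11 neutrophil markers summed to 51.2 to 101.05 CPM in day 21 KO and 7.47 to 29.3 CPM in day 21 WT libraries, without overlap, and their part in these values was not tested. Slc28a2 (CNT2, nucleoside uptake) had 82 reads over the 4 day 21 KO libraries and 1 read over the 3 day 21 WT libraries, a ratio of rates of 75.2 with an exact 95% interval of 13.1 to 3006.3 that covers counting error only. Its call was lost without day 21 WT 1 or WT 3 (adjusted p = 0.0519 and 0.0881). Slc25a24 had 6.28, 7.05, 5.56 and 7.41 CPM in day 21 KO, against 1.00, 0.439 and 0 CPM in day 21 WT libraries. Its call was lost whichever library was left out. Of the 12 neutrophil markers 0 were called higher and Csf3r lower in that comparison, with a median log2 fold change over the list of 1.77.

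Slc1a2 (GLT1, glutamate uptake), itself one of the 8 astrocyte markers and most of their sum, had 7.36, 7.73, 3.35 and 105 CPM in naive KO libraries, the last value being naive KO 4, and 14.1, 26.7, 23.6 and 19.96 CPM in naive WT libraries. In EAE it had 71.7 to 239.9 CPM in day 35 KO and 30.9 to 87.0 CPM in day 35 WT libraries, and the other 7 astrocyte markers summed to 28.02 to 86.3 CPM in day 35 KO and 13.5 to 31.3 CPM in day 35 WT libraries. In naive KO 4 those 7 markers summed to 30.2 CPM, against 4.91 to 7.83 CPM in the other naive KO libraries. No genotype comparison called Slc1a2, and naive KO 4 alone set the spread of the naive KO group.

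Without EAE, more carriers were higher than lower in old mice. Slc11a2 had 35.8, 29.9, 41.4 and 32.2 CPM in naive old libraries, against 21.6, 17.4, 23.2 and 24.2 CPM in naive WT libraries, with no overlap and a log2 fold change of 0.68 (SE 0.11, adjusted p = 0.000315). Slc7a1 had 48.2, 38.3, 65.1 and 41.1 CPM in naive old and 26.8, 20.2, 31.4 and 20.4 CPM in naive WT libraries, also apart (0.96 (SE 0.20, adjusted p = 0.00301)). Slc36a4 averaged 43.2 ± 2.65 CPM in naive old and 27.4 ± 3.19 CPM in naive WT libraries (0.65 (SE 0.11, adjusted p = 0.000449)). The glucose transporter Slc2a1 and the lactate exporter Slc16a3 (MCT4) rose together, by 0.61 (SE 0.12, adjusted p = 0.00213) and 0.68 (SE 0.15, adjusted p = 0.00391); Slc2a1 had 84.8, 75.8, 86.7 and 55.2 CPM in naive old and 57.5, 53.7, 38.7 and 48.9 CPM in naive WT libraries, where old 4 lay within the WT range. Slc44a1, a choline transporter, and Slc39a4, a zinc importer, rose by 0.62 (SE 0.13, adjusted p = 0.00229) and 1.67 (SE 0.27, adjusted p = 0.000274). Slc16a6 fell to 121 ± 13.99 CPM in naive old, against 182 ± 16.5 CPM in naive WT libraries (-0.59 (SE 0.11, adjusted p = 0.00130)). These 8 calls held without any 1 library. Slc41a2, a magnesium transporter at the minimum of 15 libraries, reached 10 counts in all 4 naive old and in 0 naive WT libraries, so it met the rule in part through the group where it is high. Its level was 2.33 to 6.22 CPM in naive old and 0.143 to 0.897 CPM in naive WT libraries, given as a description.

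Less stable in the aged libraries were Slc40a1, Slc2a6 and Slc7a11. Slc40a1 had 111, 126.8, 92.9 and 131 CPM in naive old libraries, against 172.2, 149, 131.9 and 157 CPM in naive WT libraries, -0.40 on the log2 scale (adjusted p = 0.0130), lost without naive old 3 or naive WT 1 (adjusted p = 0.0732 and 0.0662). Slc7a11 had 22.5, 23.9, 43.7 and 23.4 CPM in naive old libraries, against 8.09, 9.15, 10.2 and 7.70 CPM in naive WT libraries. No old library was within the WT range, but old 3 stood above the rest, and the call (1.69 (SE 0.52, adjusted p = 0.0453)) was lost in 7 of 8 leave-one-out fits with an adjusted p of up to 0.147. Slc2a6 had 19.6, 15.6, 20.02 and 19.9 CPM in naive old and 3.68, 7.27, 16.2 and 9.27 CPM in naive WT libraries, and its call (1.03 (SE 0.27, adjusted p = 0.0194)) was lost in 5 of 8 fits with an adjusted p of up to 0.0665. The count of 23 was 14 without naive old 1 or naive WT 1, 10 without naive old 3 and 13 without naive WT 4. Of the iron partners 3 were higher and 0 lower, with Fth1 at 1736 ± 381 CPM in naive old and 659 ± 108 CPM in naive WT libraries (1.40 (SE 0.17, adjusted p = 5.16e-06)), and Cp and Tfrc (the transferrin receptor) at 1.37 (SE 0.38, adjusted p = 0.0254) and 0.63 (SE 0.17, adjusted p = 0.0201). Of the glucose and lactate partners 4 were higher and 0 lower, among them Hif1a (a hypoxia-induced transcription factor, 0.68 (SE 0.12, adjusted p = 0.00089)) and Ldha (0.53 (SE 0.16, adjusted p = 0.0358)). Of all genes tested, 5.03% were higher and 3.15% lower in naive old than in naive WT. Monocyte marker sums were 862 to 1357 CPM in naive old and 147 to 1852 CPM in naive WT libraries and overlapped, as did neutrophil sums (7417 to 13672 and 2011 to 16779 CPM). The sum of 8 endothelial and pericyte markers did not overlap, at 75.3 to 145 CPM in naive old and 50.5 to 63.8 CPM in naive WT libraries; Flt1 averaged 80.2 CPM in naive old and 5.14 CPM in naive WT, and Pecam1 27.7 and 50.8 CPM. Up to 3 of the 8 markers were at 0 in a naive old library and up to 2 in a naive WT library. Astrocyte sums were 12.8 to 18.5 CPM in naive old and 18.2 to 40.3 CPM in naive WT libraries. The part of these cells was not tested.

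Old mice at day 35 had 3 libraries, and 1 of them decided which members were called. With all 3, 10 members were higher and 6 lower in day 35 old than in day 35 WT, beside 7.51% and 1.94% of all genes (9.45% in all). Without day 35 old 1 no member was called by edgeR, 23 had an unadjusted p below 0.05, and no gene in the table was called. Slc7a11 had 60.7, 7.68 and 6.80 CPM in day 35 old libraries, against 5.72, 3.50, 4.07 and 4.04 CPM in day 35 WT libraries, so the first old library held most of the difference. Its log2 fold change was 2.51 with that library and 0.74 without it (adjusted p = 0.0116 and 0.581). Slc2a3 was at 168.003 CPM in day 35 old 1, against 3.96 to 7.79 CPM in day 35 WT libraries, with log2 fold changes of 3.71 with and 1.68 without old 1 (adjusted p = 0.0101 and 0.386). Slc40a1 had 78.9, 88.8 and 83.4 CPM in day 35 old libraries, against 113.7, 121, 110.4 and 113 CPM in day 35 WT libraries, and here every old library was below every WT library. Its log2 fold change was -0.45 with and -0.41 without day 35 old 1, but the adjusted p was 0.0131 and 0.337. Slc16a6 likewise had 113, 164.3 and 160.1 CPM in day 35 old and 218, 223, 206.5 and 211.01 CPM in day 35 WT libraries, with log2 fold changes of -0.56 and -0.40 (adjusted p = 0.0102 and 0.336). The count was also 9 without day 35 WT 1 or WT 2, 10 without WT 4 and 25 without old 2. The monocyte marker sum was 4693, 463 and 651 CPM in day 35 old 1, 2 and 3, against 99.1 to 294 CPM in day 35 WT libraries, without overlap also when old 1 is left out, with up to 1 of 10 markers at 0 in an old and up to 5 in a WT library. Its part in the values of Slc40a1 and Slc16a6 was not tested. Clinical scores were 2.75 to 3 in day 35 old and 1 to 1.5 in day 35 WT mice.

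**Figure D5:**
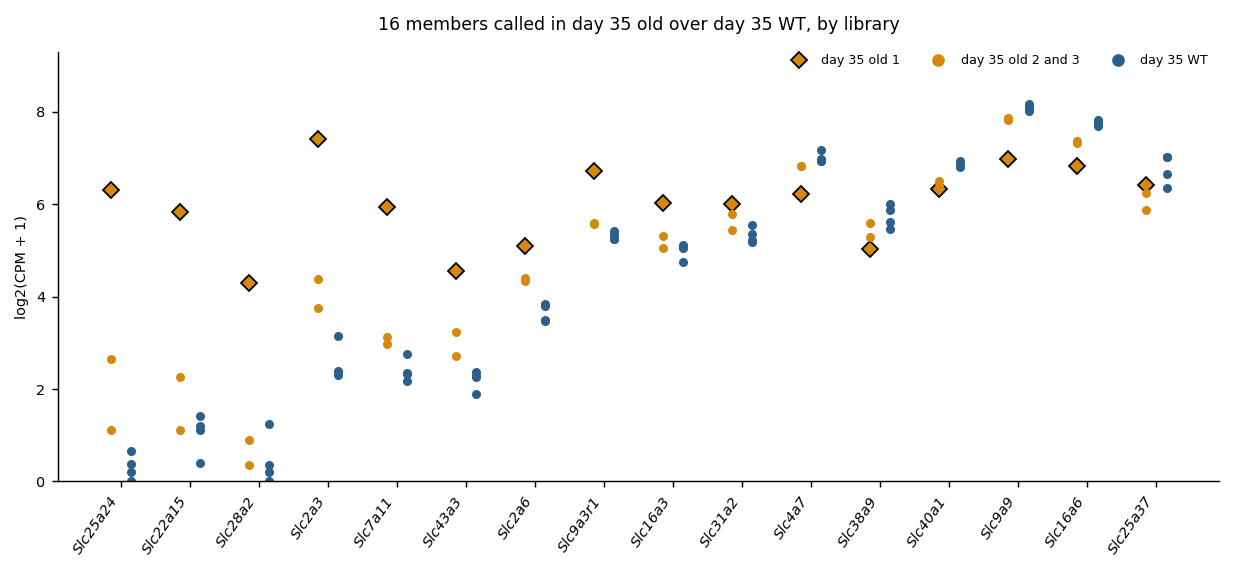
Levels, as log2(CPM + 1), of the 16 members called between day 35 old and day 35 WT, 1 point per library, with day 35 old 1 as a diamond, the other 2 day 35 old libraries in orange and the 4 day 35 WT libraries in blue. For Slc25a24, Slc2a3, Slc7a11, Slc22a15 and Slc28a2 day 35 old 1 lies far above the other libraries, and for Slc40a1 and Slc16a6 all 3 old libraries lie below all 4 WT libraries.

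In old mice, EAE at day 35 went with 18 members higher and 20 lower than in naive old libraries, beside 10.4% and 8.03% of all genes (18.4% in all). Without day 35 old 1 the count was 36, of which 23 were shared, and without day 35 old 3 it was 16. Slc40a1 was lower in EAE with all libraries (-0.46, adjusted p = 0.00529) and without old 1 (-0.42, adjusted p = 0.0172). Slc40a1 was thus called lower with EAE in WT, KO and old mice, and lower in KO than in WT at days 21 and 35; its mean was 33.9 ± 3.68 CPM in day 21 KO and 153 ± 16.7 CPM in naive WT libraries (SD, n = 4 each). In order of level the group means of Slc40a1 were lowest in day 21 KO, then day 35 KO, day 35 old, day 21 WT, day 35 WT, naive old, naive KO and naive WT. Of these neighbours, day 35 WT and naive old overlapped in their ranges, as did naive KO with naive old and with naive WT. Day 35 old, at 78.9 to 88.8 CPM, and day 21 WT, at 89.2 to 98.1 CPM, were neighbours with a narrow gap that was not tested.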

How the data were processed

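RNA of sorted microglia was sequenced from 30 libraries in 8 groups (SMARTer Stranded Total RNA-Seq Pico kit, per the labels' protocols). The authors deposited raw counts per Ensembl gene, not normalized, and a sample table with scores for EAE and RNA integrity, per the file headers. CASAVA, bcl2fastq, STAR and build GRCm38 are named in the submitters' processing notes; their versions, the counting tool, its strand setting and the annotation are not stated in these sources. Columns were tied to samples through the plate wells of the authors' sample table; 2 of the 32 count columns were not used. Some deposited columns have plain-number names and were recorded as other; they hold counts too.

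The members and the gene lists were chosen with earlier results of these data known, as were the settings tried. Genes passed edgeR's filterByExpr (minimum count 10, minimum total 15), which left 13880, were scaled by TMM and fitted with edgeR 4.0.16 (glmQLFit, robust, glmQLFTest, R 4.3.3) with 1 mean for each of the 8 groups, all 30 libraries and 22 residual degrees of freedom. P-values were adjusted by Benjamini-Hochberg over all genes tested and called below 0.05; SE is the log2 fold change over the square root of F. CPM values were computed with the TMM library sizes and are not per length unless said. SD is over libraries. The genes named were, in each main comparison, up to 6 called members each way by log2 fold change with a mean of at least 5 CPM (up to 3 in other comparisons), up to 4 by adjusted p of each class or list, a set of known transporters, the 5 most abundant per length and those at the threshold; Slc16a9, the low genes that follow other cells' markers and the 4 promoters were picked after their values were seen. Gene symbols and coordinates are from GENCODE M21, and promoters from RefSeq (GRCm38.p6); 147 members matched a promoter entry. The fit was tested on simulated data. Alternatives were no filter, a stricter filter (1 CPM in 15 libraries), DESeq2 size factors, DESeq2 1.42.0, a block for the i5 index, only the groups compared, other handling of the library with conflicting labels, and leaving out each library. Depth was 4712803 to 11034565 counts per library, which limits the precision of low genes. The values of 1 member are not reported here.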

Additional observations from a re-analysis of the deposited data

Results flagged for a closer look

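A library was singled out where its gap to the nearest library of its group exceeded Dixon's 95% critical value for the group's range. This marked 36 of 570 group tests over 95 named members, and chance marks about 1 in 20 groups. Naive KO 4 had 158.4 CPM of Slc15a4 (117 to 119.7 in the other naive KO libraries), 244 CPM of Slc16a6 (168.4 to 172.9), 105 CPM of Slc1a2 (3.35 to 7.73), 8.07 CPM of Slc4a4 (0.129 to 1.16) and 0.147 CPM of Slc25a24 (6.95 to 7.98). The astrocyte markers other than Slc1a2 summed to 30.2 CPM in naive KO 4 and 4.91 to 7.83 CPM in the others, and Slc25a24 was low where neutrophil markers were low (637 CPM, against 2797 to 3064 CPM in the other naive KO libraries); the part of those cells was not tested. Naive old 4, which had the highest neutrophil marker sum of the naive old libraries, had 33.9 CPM of Slc25a24, 15.4 CPM of Slc43a3 and 106 CPM of Slc15a4, above the other naive old libraries. The same library had 119 CPM of Slc37a2, 9.44 CPM of Slc38a6 and 188 CPM of Slc43a2, below the others.

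Naive old 3 had 43.7 CPM of Slc7a11 and 46.5 CPM of Slc7a2, against 22.5 to 23.9 and 4.89 to 6.56 CPM in the other naive old libraries, and 16.9 CPM of Slc39a3, below theirs. Naive WT 3 likewise had 6.28 CPM of Slc7a2, against 0.143 to 0.588 CPM in the other naive WT libraries, with 142.4 CPM of Slc38a1 (high) and 56.1 CPM of Slc29a1 (low). Day 35 KO 4 was low for Slc2a5 (125 CPM), Slc38a1 (124.4 CPM), Slc39a8 (22.1 CPM) and Slc3a2 (162.2 CPM, against 232 to 243 CPM in the other day 35 KO libraries). Low values were also seen for Slc11a1 in naive WT 2 (189 CPM) and day 35 WT 2 (255 CPM), Slc39a14 in day 35 WT 2 (20.4 CPM) and Slc44a1 in naive WT 2 (36.1 CPM). Slc16a7 in day 21 KO 4 (8.30 CPM), Slc2a6 in naive old 2 (15.6 CPM) and Slc25a22 and Slc25a23 in naive KO 1 (13.8 and 21.3 CPM) were low as well, as were Slc9a5 in naive KO 2 (2.03 CPM) and Slc6a8 in naive KO 3 (2.19 CPM). High values were seen for Slc18b1 in naive KO 1 (27.4 CPM), Slc4a4 in day 21 KO 4 (5.48 CPM), Slc25a25 in day 35 WT 1 (39.3 CPM), Slc6a9 in day 35 WT 3 (5.95 CPM) and Slc2a3 in day 35 WT 4 (7.79 CPM).

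The genotype effect differed between day 21 and naive mice, by the interaction test of edgeR at an adjusted p below 0.05, for 27 named members. On the log2 scale the difference (day 21 effect minus naive effect) was 8.02 for Slc28a2, 5.80 for Slc25a24, 1.58 for Slc2a6, 1.18 for Slc6a8, 1.05 for Slc25a25, 0.92 for Slc9a3r1, 0.70 for Slc39a14, 0.61 for Slc31a2 and 0.59 for Slc31a1. It was -0.55 for Slc16a6, -0.56 for Slc11a2 and Slc25a45, -0.74 for Slc9a9, -0.76 for Slc44a2, -0.77 for Slc16a7, -0.80 for Slc7a8 and Slc29a3, -1.18 for Slc9a7 and -1.25 for Slc25a23. It was -1.37 for Slc40a1, -1.45 for Slc18b1, -1.53 for Slc39a4, -1.59 for Slc12a2, -1.68 for Slc46a3, -1.71 for Slc2a5, -2.06 for Slc4a3 and -2.72 for Slc5a10. Slc28a2 and Slc25a24 had very few reads in day 21 WT libraries, as did Slc5a10 in day 21 KO libraries, and the fitted differences of these genes were no bound. Between day 35 and naive mice the difference was -0.67 for Slc40a1, the only member past the threshold there.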

How the results depend on the processing

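No named member changed direction under any of the alternatives run: 2537 refitted values of called members kept the call and 460 lost it, 323 of them when a library was left out and 53 when only the groups compared were fitted. With only the groups compared, the number of members called was 78 for day 21 KO against WT, 13 for day 35 KO against WT, 0 for naive KO against WT (29 at an unadjusted p below 0.05), 0 for day 35 old against day 35 WT (19) and 0 for day 35 old against naive old (33). It was then 2 for day 35 against day 21 WT, 43 for the day 21 and 2 for the day 35 interaction. DESeq2's Wald test called 4 for naive KO, 11 for day 35 KO, 2 for day 35 against day 21 WT and 8 for the day 35 interaction. Without a filter, 17 were called for day 35 WT, 10 for day 35 old against WT, 25 for day 35 old against naive old and 2 for the day 35 interaction. The i5 index block gave 10 for day 35 old against WT and 2 for the day 35 interaction, and the stricter filter and DESeq2 size factors gave 2 for that interaction. With the library of conflicting labels moved to KO it was 0 (31 at an unadjusted p below 0.05), and without that library it was 3. Leaving out 1 library gave 0 to 2 (naive KO), 28 to 41 (day 21 KO), 1 to 6 (day 35 KO), 34 to 47 (day 21 WT), 14 to 32 (day 35 WT), 10 to 28 (naive old), 0 to 25 (day 35 old against WT), 0 to 0 (day 35 against day 21 WT), 25 to 45 (day 35 against naive KO), 16 to 52 (day 35 old against naive old), 12 to 32 and 0 to 3 (day 21 and day 35 interaction). The causes were not tested. The labels give no replicate numbers, and replicates are numbered in accession order; the i5 library index, which libraries of different groups share, was fitted as the block above. With 3 or 4 libraries a group and few reads for the lowest members, small differences were not detectable.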
